A study of Mus musculus with 18 samples.

Results

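The small noncoding RNAs that guide or form the RNA-processing machinery of the nucleus were followed in BV2 cells, an immortalised mouse microglial line, in the presence of oxyhemoglobin. All rows of the count table whose symbol begins with Snord, Snora, Scarna or Rnu followed by a digit were taken. They numbered 172 of 55487 gene rows and carried 164 distinct symbols. Of these, 99 were C/D box small nucleolar RNAs, 42 were H/ACA box small nucleolar RNAs, 9 were Cajal body RNAs and 22 had an Rnu symbol. The Rnu rows comprised 7 RNAs of the major spliceosome, 2 of the minor spliceosome, 10 copies of U3, the U7 RNA Rnu7 and 2 others. The cells were untreated (0 h) or had received 10 µM oxyhemoglobin for 12 or 24 h, and nuclear and cytoplasmic RNA was sequenced at each time, with 3 libraries for each of the 6 groups. No genetic change was involved, and no group was kept untreated for 12 or 24 h, so treatment and time in culture cannot be told apart. The labels do not say whether the 3 libraries came from separate cultures, and their treatment note speaks of a single treated replicate although the titles number 3 in each group. Every value is the authors' mean over the 3 libraries of a group, so no spread between libraries and no p-value is given.

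Small nucleolar RNAs work as guides. C/D box RNAs direct fibrillarin to methylate a ribose in ribosomal RNA, and H/ACA box RNAs direct dyskerin to turn a uridine into pseudouridine. A few, such as U3, Snord118 (U8) and Snord13 (U13), act in the cutting or acetylation of ribosomal RNA precursors. Cajal body RNAs carry the same boxes and modify the spliceosomal RNAs, which assemble with Sm proteins and remove introns. Most mammalian small nucleolar RNAs are cut out of introns of other genes, whereas the spliceosomal RNAs, Snord13 and Snord118 have promoters of their own.

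The sequences below were chosen for the results that follow and are given in DNA letters, 5′ to 3′, from GENCODE M21 transcripts on GRCm38. The minor spliceosomal U12 RNA Rnu12 (chr15:83149644-83149794, plus strand) is shown because it changed most among the spliceosomal RNAs. Capitals mark the Sm protein site, searched as ATTTNTG or ATTTTTTG on the transcript strand.
Rnu12: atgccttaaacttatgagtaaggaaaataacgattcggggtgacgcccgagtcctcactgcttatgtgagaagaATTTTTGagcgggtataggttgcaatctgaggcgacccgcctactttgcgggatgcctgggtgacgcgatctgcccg
This motif was found in 6 of 7 major and 2 of 2 minor spliceosomal RNAs, in 0 of 10 U3 copies and in 7.66% of 8733 other annotated transcripts under 300 bases.

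Of the C/D box RNAs, Snord118 (chr11:69073427-69073561, plus strand) and Snord104 (chr11:106500993-106501062, plus) are shown because they lie outside other annotated genes. Snord82 (chr1:86356261-86356330, minus), in an intron of the nucleolin gene Ncl, is shown for its large ratio, and the Cajal body RNA Scarna9 (chr9:15326264-15326333, minus), in Cep295, because it carries the same boxes. Capitals mark the C box core TGATG and the D box CTGA that follows it.
Snord118: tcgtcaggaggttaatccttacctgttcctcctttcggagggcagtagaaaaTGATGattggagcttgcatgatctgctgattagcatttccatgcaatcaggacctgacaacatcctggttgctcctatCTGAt
Snord104: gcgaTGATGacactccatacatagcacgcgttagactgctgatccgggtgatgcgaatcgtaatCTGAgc
Snord82: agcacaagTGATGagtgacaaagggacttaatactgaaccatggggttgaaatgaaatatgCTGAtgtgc
Scarna9: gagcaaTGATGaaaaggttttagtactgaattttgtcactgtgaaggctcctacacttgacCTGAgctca
TGATG followed by CTGA on the transcript strand occurred in 93 of 99 C/D box members, 10 of 10 U3 copies, 5 of 9 Cajal body RNAs and 2 of 42 H/ACA box members, against 10.2% of the other short transcripts.

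A further 5 C/D box RNAs are shown because neighbours in the same gene behaved differently. Snord43 (chr15:80082847-80082954, minus) and Snord83b (chr15:80078498-80078591, minus) lie in the ribosomal protein gene Rpl3. Snord49a (chr11:62603450-62603521, plus), Snord49b (chr11:62603079-62603150, plus) and Snord65 (chr11:62604515-62604586, plus) lie in the noncoding gene 2410006H16Rik. The capitals have the same meaning.
Snord43: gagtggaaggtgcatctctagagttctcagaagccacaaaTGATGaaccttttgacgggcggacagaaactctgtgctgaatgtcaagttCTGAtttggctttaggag
Snord83b: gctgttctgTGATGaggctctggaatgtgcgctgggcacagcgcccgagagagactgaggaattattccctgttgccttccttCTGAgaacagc
Snord49a: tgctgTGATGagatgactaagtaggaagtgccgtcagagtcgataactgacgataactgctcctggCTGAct
Snord49b: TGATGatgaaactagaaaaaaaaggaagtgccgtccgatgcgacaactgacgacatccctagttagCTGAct
Snord65: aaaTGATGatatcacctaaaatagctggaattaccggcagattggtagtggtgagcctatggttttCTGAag
Snord49a and Snord49b share a run of 13 bases, aggaagtgccgtc, whereas neither shares more than 7 bases in a row with Snord65, and Snord43 and Snord83b share 6.

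Of the H/ACA box RNAs, Snora17 (chr2:26639190-26639321, minus), outside other genes, is shown as the most abundant member of its class in the untreated nucleus. Capitals mark the ACA trinucleotide near the 3′ end.
Snora17: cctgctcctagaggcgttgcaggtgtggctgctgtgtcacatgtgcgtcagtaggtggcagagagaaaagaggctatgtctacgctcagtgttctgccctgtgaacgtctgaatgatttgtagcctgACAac
ACA within the last 10 bases was found in 40 of 42 H/ACA box members, 4 of 9 Cajal body RNAs and 8 of 99 C/D box members, against 19.6% of the other short transcripts.

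Of the 172 members, 82 had reads in at least 1 group and 90 were at 0 in all 6. The members at 0 followed the annotation. All 62 members whose every base lay in exons of genes outside the family, on either strand, were at 0, among them the minor spliceosomal Rnu11 and Rnu7, which takes part in histone mRNA 3′ end formation. All 14 members with only some bases in such exons had reads, and so did 68 of the 96 with none. How reads on overlapping genes were assigned is not given in the sources used here, so a 0 of these members was not read as absence of the RNA. Among members at 0 without exon overlap were 17 copies of Snord116, an imprinted cluster known from neurons. Their 0 was not read as absence either, because how multiply mapped reads were treated is not given. Of the 172, 31 members had at least 1 annotated copy of identical sequence, such as Rnu6 with 42 copies and 1 read in all, and their counts are uncertain. A member was compared where its mean count, rescaled to the median depth, reached 10 in at least 1 group, which held for 63 members in the nucleus and 27 in the cytoplasm.

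The groups held 14652566, 15899566 and 16031875 reads in the nucleus and 22379595, 16537318 and 19537309 in the cytoplasm at 0, 12 and 24 h, summed over 3 libraries. Microglial markers were present, with 8 of 10 reaching 10 counts and none at 0 in all 6 groups. P2ry12 was at 0 in nuclear 12 h and the 3 cytoplasmic groups and Aif1 in cytoplasmic 12 h, and the summed level of the 10 ranged from 98.6 to 900 CPM (normalised counts per 1000000 reads). Of 4 markers each, astrocyte genes summed to at most 1.43 CPM, neuronal genes to 2.81, fibroblast genes to 6.25, oligodendrocyte genes to 12.8 and erythroid genes to 13.8, nearly all of the last from Alas2. Aqp4, Aldh1l1, Snap25, Syt1, Mog, Dcn and Hba-a1 were at 0 in every group. Nuclear marker RNAs such as Malat1 summed to between 46332 and 64097 CPM in the nuclear groups and to at most 3419 in the cytoplasmic groups. Cytoplasmic marker RNAs summed to between 33565 and 49802 CPM in the cytoplasmic groups and to at most 4885 in the nuclear groups, although Gapdh was on the nuclear side (log2 ratio of nuclear to cytoplasmic CPM 1.54, 1.93 and 1.46).

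Together the members took 0.101% of the nuclear reads at 0 h, 0.220% at 12 h and 0.286% at 24 h, or 893, 2268 and 3124 CPM. Without Rnu12 the sum was 867, 1709 and 2218 CPM. Rnu12 alone held 2.92%, 24.7% and 29.0% of the members' nuclear reads. Per kilobase of transcript, with all 6 groups scaled together, Snord17 was the most abundant member in the untreated nucleus (468 CPM per kb), ahead of Scarna2 (341), which guides modification of U2, and Snora17 (207). At 24 h Rnu12 stood first at 4019 CPM per kb, followed by Snord118 (859), Snord13 (837), Snord104 (755) and Scarna2 (698).

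In the nucleus at 12 h, 27 of the 63 compared members were higher than at 0 h and 0 were lower. To count as higher or lower, a gene needed a difference of 2-fold or more and a 95% counting interval that left out 0 on the log2 scale. Over all genes compared, 7.92% were higher and 6.64% lower by this rule. The members' median log2 ratio was 0.56, against 0.00 over all genes compared. The higher members were 14 of 36 C/D box RNAs, 5 of 15 H/ACA box RNAs, 5 of 7 Cajal body RNAs and 3 of 5 Rnu RNAs. Of other annotated genes with under 300 exonic bases, 100 of 974 (10.3%) were higher and 137 were lower. In bulk RNA, a different share of cells carrying an RNA and a different amount of it per cell cannot be told apart.

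At 24 h, 32 of 63 members were higher than at 0 h and 3 were lower, with a median log2 ratio of 1.03, against −0.02 over all genes compared. The corresponding shares over all genes compared were 7.88% higher and 5.75% lower. Higher were 16 of 36 C/D box RNAs, 7 of 15 H/ACA box RNAs, 6 of 7 Cajal body RNAs and 3 of 5 Rnu RNAs. The 12 h and 24 h comparisons share the same 0 h group. Under total-count scaling the median of all genes moved by −0.22 at 12 h and −0.30 at 24 h, and the higher genes made up 31.9% and 27.5% of those called, where they had made up 54.4% and 57.8%. On log2(TPM + 1), where a call needed 2-fold alone and no interval, the shifts were −0.23 and −0.45, with 31.7% and 12.8% higher. The members' median stayed above 0 under these scalings, at 0.34 and 0.73 by total counts and at 0.25 and 0.40 by TPM.

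**Figure D1:**
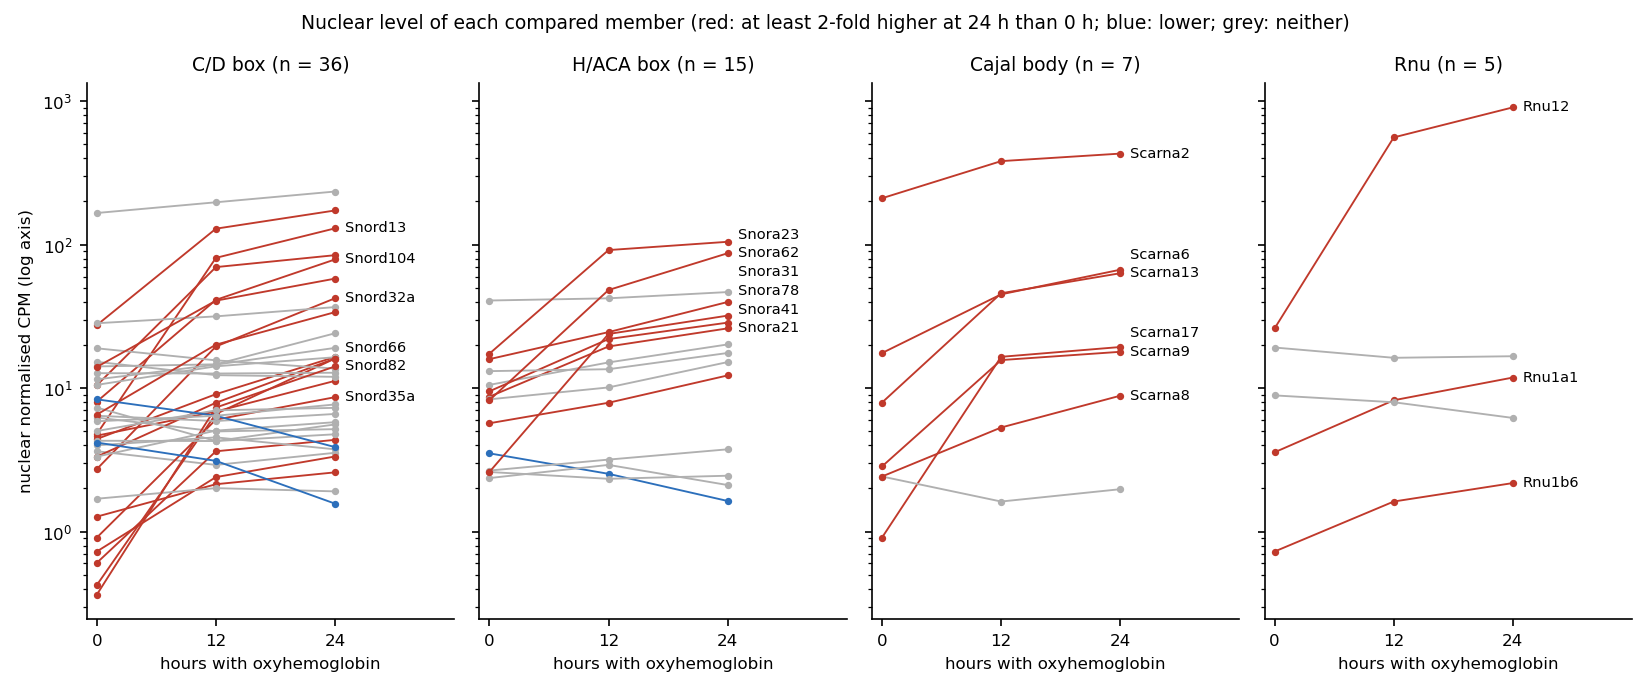
Nuclear level of the 63 compared members in the 4 classes, in normalised CPM on a log axis, against hours with oxyhemoglobin, with 1 line per member through the 3 group means. Red lines are members at least 2-fold higher at 24 h than at 0 h, blue lines are lower and grey lines neither, and up to 6 changed members per class are named. Rnu12 goes from 26.1 to 906 CPM, while Snord17, the grey line at the top of the C/D box panel, goes from 166 to 235.

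Among the spliceosomal RNAs Rnu12 changed most. This RNA pairs with the branch site of the rare minor introns. Its nuclear level was 26.1 CPM at 0 h, 559 at 12 h and 906 at 24 h, from 431, 8625 and 13292 reads. Both treated groups were far above the untreated group, by 21.4-fold at 12 h (log2 ratio 4.42, interval 4.28 to 4.56) and 34.7-fold at 24 h (5.12, interval 4.98 to 5.26). The U5 RNA Rnu5g, a core RNA of the major spliceosome, had 8.90, 7.98 and 6.20 CPM and log2 ratios of −0.16 and −0.52, under 2-fold at both times, although on log2(TPM + 1) it was lower at 24 h (−1.13). Rnu1a1, a U1 RNA that recognises 5′ splice sites, had 3.57, 8.24 and 11.9 CPM, with log2 ratios of 1.20 (interval 0.75 to 1.68) and 1.73 (1.30 to 2.18). Rnu1a1 has 6 identical annotated copies and Rnu1b6, also higher (1.16 and 1.59), has 2, so their reads cannot be assigned to 1 locus. Both were under 2-fold at 12 h by total counts (0.99 and 0.94) and by TPM (0.88 and 0.79), and Rnu1b6 also at 24 h by TPM (0.90). The U2 RNA Rnu2-10 had 10, 20 and 18 nuclear reads, too few for comparison there. Rnu73b, which falls in this class by its symbol and shares the 13 bases tgtttcggtccca with the C/D box RNA Snord73a, was near its starting level, with 19.2, 16.3 and 16.7 CPM.

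Among the C/D box RNAs outside other annotated genes, Snord13, which pairs with 18S ribosomal RNA and directs its acetylation, had a nuclear level of 4.79 CPM at 0 h, 80.9 at 12 h and 130 at 24 h. The 79 reads at 0 h stood against 1248 and 1907 later, ratios of 16.9-fold (log2 4.08, interval 3.75 to 4.43) and 27.2-fold (4.76, interval 4.44 to 5.11). Snord118, needed to mature the 5.8S and 28S ribosomal RNAs, had 27.5, 129 and 173 CPM. It was 4.70-fold higher at 12 h (log2 2.23, interval 2.09 to 2.38) and 6.30-fold at 24 h (2.65, interval 2.51 to 2.80). Snord104, a methylation guide, had 8.06, 41.2 and 78.9 CPM, with log2 ratios of 2.36 (2.08 to 2.64) and 3.29 (3.03 to 3.56). All 3 were also higher at both times by total counts, median-of-ratios scaling and TPM, and none has an identical annotated copy.

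C/D box guides inside other genes ranged from the highest ratios in the family to the lowest. Snord82, in Ncl, had 0.363, 7.33 and 14.2 CPM (log2 4.33 and 5.29), but only 6 reads at 0 h, so its interval at 24 h ran from 4.14 to 6.75. Snord66, in the translation factor gene Eif4g1, had 7, 102 and 236 reads, with log2 ratios of 3.96 and 5.25. Snord15a, in the ribosomal protein gene Rps3, had 10.5, 69.8 and 84.5 CPM and was 6.66-fold and then 8.06-fold higher (log2 2.74 and 3.01, interval at 24 h 2.78 to 3.25). Snord89, in the noncoding gene Gm15832, went from 14.1 to 40.7 and 58.0 CPM. In contrast Snord17, the most abundant C/D box member, had 166, 197 and 235 CPM, with log2 ratios of 0.25 and 0.50. Snord70, Snord71 and Snord72 had log2 ratios between −0.47 and 0.01. Of the 3 lower members at 24 h, Snord92 had 8.36, 6.42 and 3.88 CPM (log2 −1.11, interval −1.58 to −0.65) and Snord98 had 4.18, 3.11 and 1.57 CPM (−1.41, interval −2.16 to −0.72). The third, the H/ACA box RNA Snora19, had 3.51, 2.53 and 1.64 CPM (−1.10, interval −1.85 to −0.39). Snora19 has 1 identical copy and 51.5% of its bases in exons of another gene, so its count is uncertain.

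**Figure D2:**
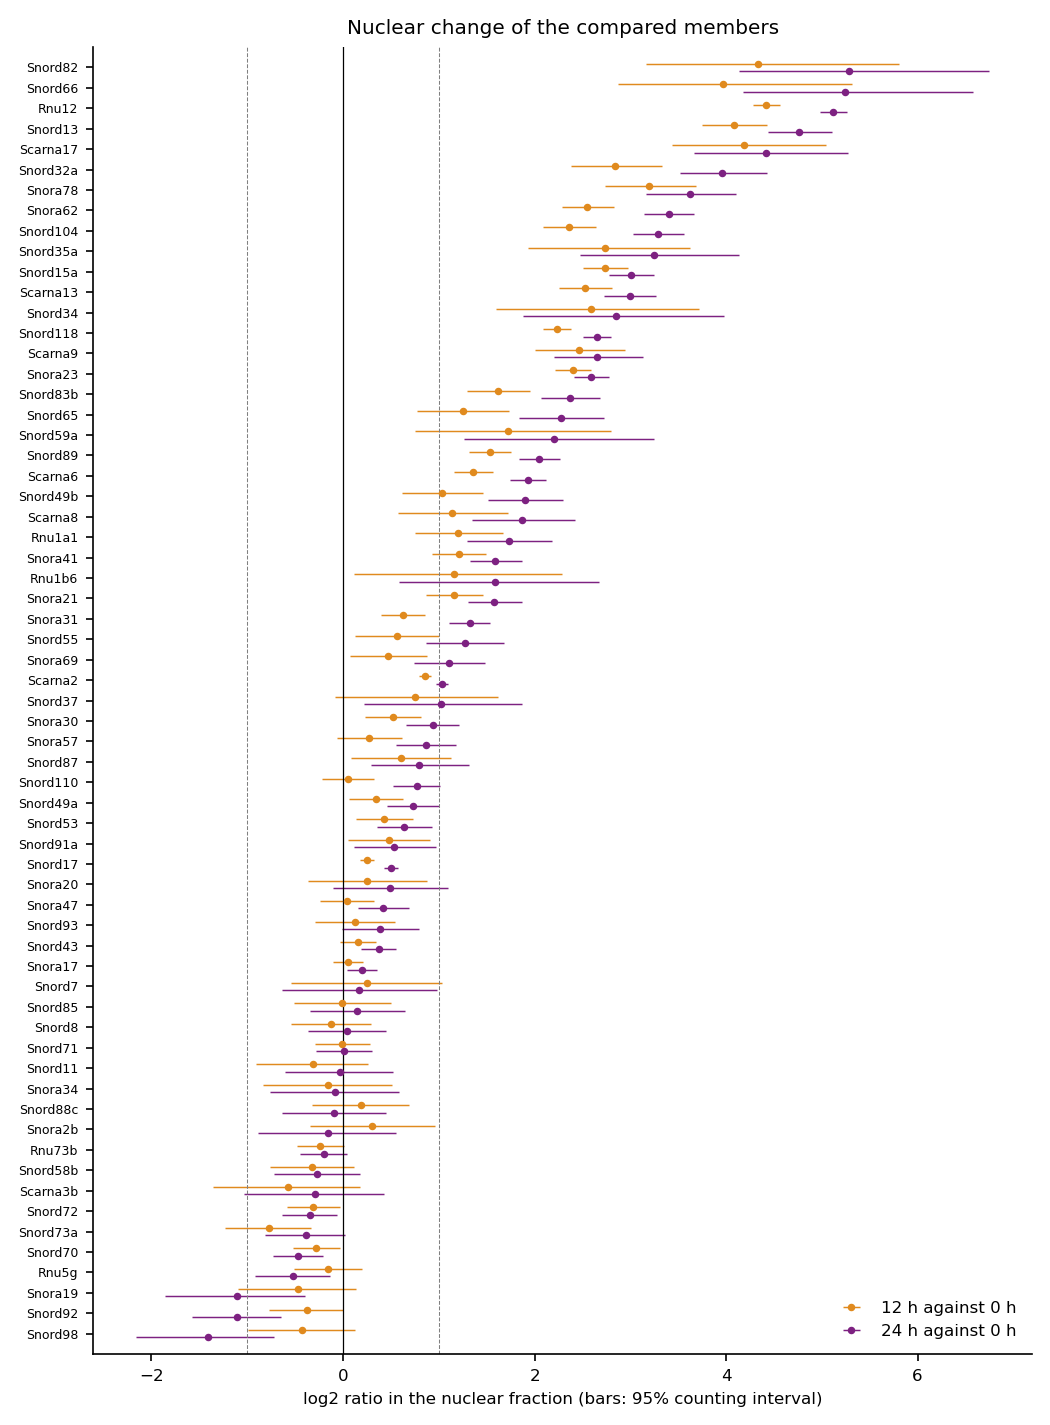
Log2 ratio of the nuclear level at 12 h (orange) and 24 h (purple) to that at 0 h for each of the 63 compared members, ordered by the 24 h ratio, with bars for the 95% counting interval and dashed lines at 2-fold. The ratios at 24 h run from 5.29 for Snord82 to −1.41 for Snord98, and the wide bars of Snord82 and Snord66 go with 6 and 7 reads at 0 h.

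H/ACA box RNAs showed the same mixture. Snora23, in the importin gene Ipo7, had 17.4, 91.7 and 105 CPM, ratios of 5.28-fold and 6.03-fold (log2 2.40, interval 2.22 to 2.59, and 2.59, interval 2.41 to 2.78). Snora62, in the ribosomal protein gene Rpsa, went from 8.24 to 48.3 and 87.2 CPM (log2 2.55 and 3.40), and Snora78, in the noncoding gene Snhg9, from 43 to 368 and 470 reads (3.20 and 3.62). Snora41, in Eef1b2, was at 1.21 and 1.59, and Snora31, in Tpt1, was under 2-fold at 12 h (0.63) and higher at 24 h (1.32). By TPM both were under 2-fold at each time, Snora41 at 0.90 and 0.97 and Snora31 at 0.71 at 24 h, and Snora41 was also under it at 12 h by total counts (0.99). Snora17, the most abundant H/ACA box member at 0 h, had 40.8, 42.3 and 46.8 CPM and log2 ratios of 0.05 (interval −0.11 to 0.21) and 0.20 (0.04 to 0.35).

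Nearly all compared Cajal body RNAs were higher at 24 h. Scarna17 (chromosome 18, 74778391 to 74778469, minus strand), outside other genes, had 15, 255 and 284 reads, or 0.909, 16.5 and 19.4 CPM (log2 4.19, interval 3.44 to 5.04, and 4.41, interval 3.67 to 5.27). Scarna13, in Snhg10, had 7.93, 45.9 and 63.2 CPM (log2 2.53 and 2.99), Scarna9 had 2.85, 15.7 and 17.9 CPM (2.46 and 2.65) and Scarna6, in the autophagy gene Atg16l1, had 17.6, 45.1 and 66.9 CPM (1.36 and 1.93). Scarna2, the most abundant of the class, had 211, 382 and 431 CPM. Its log2 ratio was 0.86 at 12 h, below 2-fold, and 1.03 at 24 h (interval 0.97 to 1.09), the latter under 2-fold by total counts (0.73) and by TPM (0.42). Scarna8 was at 1.13 and 1.87, and under 2-fold at 12 h by total counts (0.92) and by TPM (0.81). Scarna3b was the exception, with 2.42, 1.62 and 1.98 CPM, 89.9% of its bases lying in exons of another gene.

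From 12 to 24 h few members were called in the nucleus. On the scaling used, 51 uncalled members lay above 0 and 9 below, where all genes gave 7924 and 8848. Only 3 of 63 members were higher, Snord32a (log2 1.12), Snord65 (1.02) and Snord66 (1.28), and 0 were lower, where all genes gave 1.83% and 1.19%. By TPM none of the 3 reached 2-fold (0.81, 0.71 and 0.97), nor did Snord65 by total counts (0.94). The median over the members was 0.29, and −0.02 on log2(TPM + 1), where 9.31% of the called genes were higher, compared with 44.2% by total counts and 60.7% by the scaling used. Rnu12 was at 0.70 (interval 0.66 to 0.73) between these times, under 2-fold.

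Position and length were examined as features the symbols do not set. Of the 7 compared members outside other annotated genes, 5 were higher at 12 h and 6 at 24 h, with medians of 2.36 and 3.29. Of the 53 within another gene on the same strand, 21 and 25 were higher, with medians of 0.48 and 0.80. Among members under 100 bases 12 of 32 were higher at 12 h and 14 of 32 at 24 h, and among those of 100 bases or more but under 200, 13 and 15 of 27. Of 4 members of at least 200 bases, 2 and 3 were higher.

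Members inside other genes were set beside the exonic level of the gene that encloses them, for the 51 members and 42 genes where both could be compared. The genes stayed near their starting level, with medians of −0.03 at 12 h and −0.02 at 24 h, while the members had medians of 0.48 and 0.80. Of the 20 members higher at 12 h, the enclosing gene was also higher for 1, Snord89 in Gm15832 (member 1.54, gene 1.01, the latter 0.79 by total counts and 0.70 by TPM and so under 2-fold). Of the 24 higher at 24 h, it was so for 0. At 24 h, 24 members exceeded their gene by at least 2-fold with an interval of the difference above 0, and 2 fell below it by as much, Snora19 under Eif3a and Snord92 under Wdr43. Ncl was at 0.05 and 0.08 where Snord82 was at 4.33 and 5.29, and Rps3 at −0.01 and −0.04 where Snord15a was at 2.74 and 3.01. For Snora62 and Rpsa the difference was 2.41 (interval 2.12 to 2.69) at 12 h and 3.17 (2.89 to 3.44) at 24 h. Reads of unspliced transcripts that fall on a member cannot be told apart from the member's own.

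**Figure D3:**
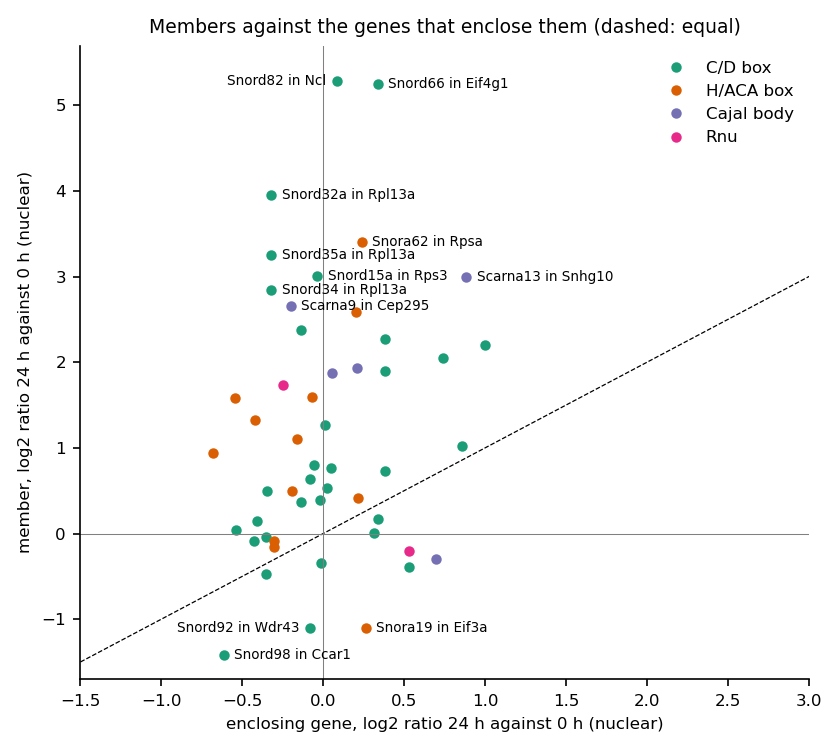
Nuclear log2 ratio at 24 h against 0 h of each member within another gene (vertical axis) against that of the enclosing gene (horizontal axis), with 1 point for each of the 51 pairs, coloured by class, and a dashed line of equality. The members spread from −1.41 to 5.29, whereas the enclosing genes lie between −0.68 and 0.999.

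Some members lie in introns of the same gene and could be compared with each other. There were 16 such members in 7 genes, or 11 pairs. In 1 pair at 12 h and 5 pairs at 24 h the nuclear ratios differed by at least 2-fold with an interval that excluded 0. In Rpl3, Snord43 had 28.3, 31.7 and 36.7 CPM, with log2 ratios of 0.16 and 0.37, and Snord83b had 6.54, 20.1 and 33.9 CPM, with 1.62 and 2.37. The difference between them was −1.46 (interval −1.83 to −1.10) at 12 h and −2.00 (−2.35 to −1.65) at 24 h, while Rpl3 itself was at −0.08 and −0.14. Per kilobase, with all 6 groups scaled together, Snord43 stood at 176 CPM and Snord83b at 46.6 in the untreated nucleus, and at 228 and 241 at 24 h, so the gap in level seen at 0 h was no longer present.

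In 2410006H16Rik, Snord49a had 11.5, 14.6 and 19.1 CPM and was under 2-fold (0.34 and 0.73), Snord49b had 4.42, 9.08 and 16.5 CPM (1.04, or 0.82 by total counts and 0.73 by TPM, and 1.90) and Snord65 had 3.33, 7.91 and 16.1 CPM (1.25, or 0.93 by TPM, and 2.27). Snord49a lay below Snord49b, with which it shares the 13 bases given above, by a difference of −1.17 (interval −1.63 to −0.71) at 24 h, and below Snord65 by −1.54 (−2.04 to −1.04). In Wdr43, a ribosome assembly gene, Snord53 was at 0.64 and Snord92 at −1.11 at 24 h, a difference of 1.75 (1.22 to 2.27). In the ribosomal protein gene Rpl13a all 3 guides were higher, Snord32a at 2.84 and 3.96, Snord34 at 2.58 and 2.85 and Snord35a at 2.73 and 3.25, while the gene was at −0.34 and −0.32. At 24 h Snord32a exceeded Snord34 by 1.11 (0.05 to 2.16). In the untreated nucleus Snord32a had 45 reads, Snord34 10 and Snord35a 15. The pairs in Nop58 (Snord11 and Snord70), Kansl2 (Snora2b and Snora34) and Rps3a1 (Rnu73b and Snord73a) held no member past 2-fold.

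**Figure D4:**
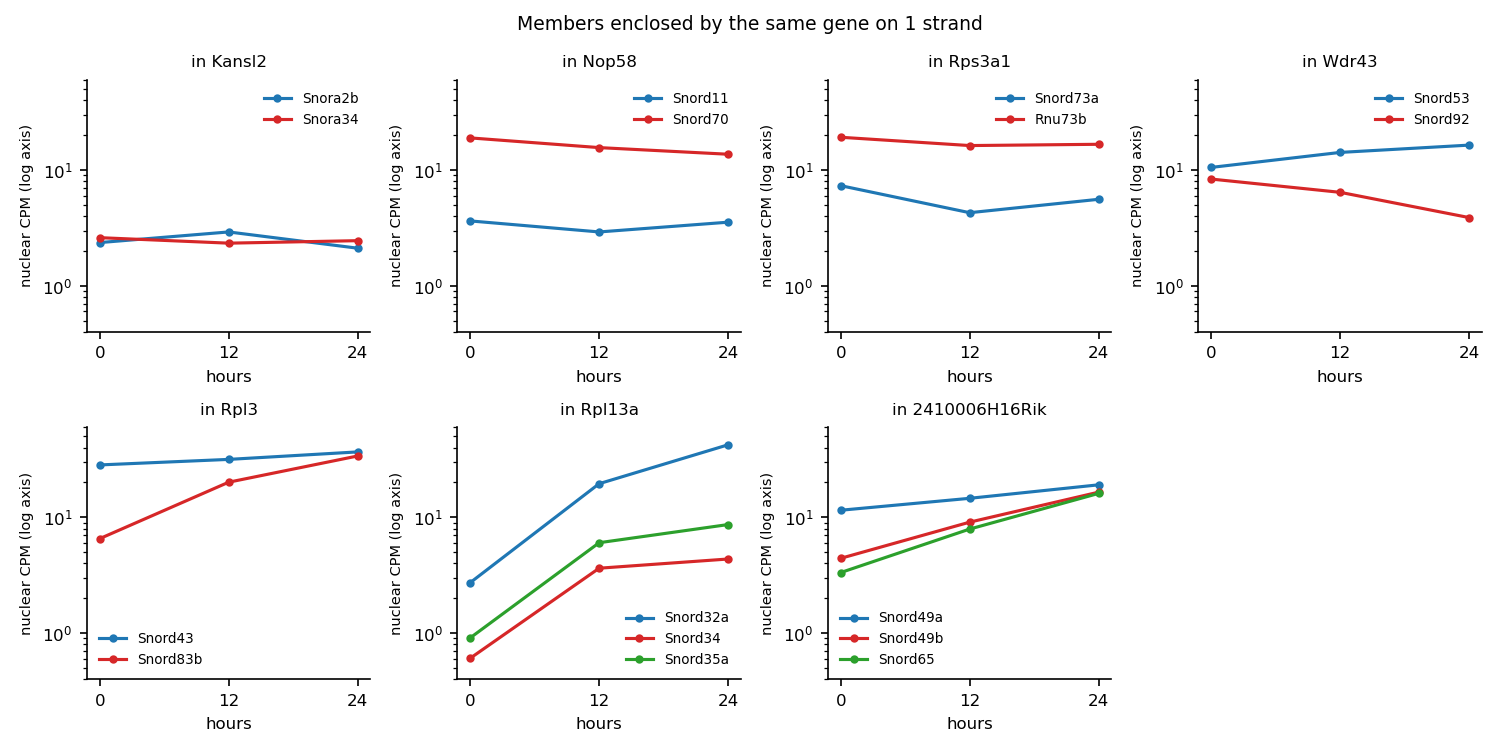
Nuclear normalised CPM (log axis) at 0, 12 and 24 h of the 16 members that share an enclosing gene, with 1 panel per gene and 1 line per member. In Rpl3 the line of Snord83b climbs from 6.54 to 33.9 CPM towards the line of Snord43, and in Rpl13a all 3 lines climb.

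In the cytoplasm the members were scarce, with 2289, 3799 and 4068 reads in all, or 0.0102%, 0.0230% and 0.0208% of the total. At 12 h, 15 of the 27 compared members were higher than at 0 h and 0 were lower (median log2 ratio 1.10), where all genes compared gave 11.7% and 8.99%. At 24 h, 15 were higher and 0 lower (median 1.12), where all genes gave 10.4% and 6.71%. Other annotated genes under 300 exonic bases were higher in 102 of 192 cases (53.1%) at 12 h and 91 of 192 at 24 h, close to the members' share of 55.6%. On log2(TPM + 1) the median of all genes moved by −0.47 and −0.35, the higher genes fell to 15.5% and 21.6% of those called, from 56.5% and 60.7%, and 8 and 9 members were higher.

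Rnu12 had a cytoplasmic level of 3.58 CPM at 0 h, 46.6 at 12 h and 37.4 at 24 h, higher at both times (log2 3.70, interval 3.37 to 4.06, and 3.39, interval 3.05 to 3.74). Scarna2 had 8.60, 30.5 and 25.6 CPM (1.83 and 1.57), Scarna13 0.906, 6.87 and 4.25 CPM (2.92 and 2.23) and Snora78 0.181, 2.12 and 1.81 CPM (3.55 and 3.32, from 4 reads at 0 h). Snord118, the most abundant member of the untreated cytoplasm, did not follow its nuclear level. It had 23.6, 28.0 and 26.5 CPM, with log2 ratios of 0.25 (interval 0.06 to 0.43) and 0.17 (−0.01 to 0.35), which turned to −0.49 and −0.36 by TPM. Snord13 was higher at 12 h (1.10, but 0.36 by TPM) and under 2-fold at 24 h (0.45). The U2 RNA Rnu2-10 had 12, 25 and 30 cytoplasmic reads (1.52 and 1.43, and 0.72 and 0.83 by TPM) and has 3 identical copies. Snord85, whose nuclear log2 ratios were −0.01 and 0.15, had 0.589, 1.62 and 1.86 CPM in the cytoplasm (1.46 and 1.66, the former 0.70 by TPM). From 12 to 24 h, 0 of 27 members were higher and 1 was lower, Scarna6 (−1.06, interval −1.66 to −0.48), where all genes gave 2.9% and 1.89%. It was under 2-fold by total counts (−0.95) and by TPM (−0.82). Of the called genes 60.6% were higher between these times, 73.4% by total counts.

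Among the 26 members compared in both fractions, 9 were called higher in both at 12 h, 2 in the nucleus alone and 5 in the cytoplasm alone. At 24 h these counts were 10, 3 and 4, and in neither case was a member higher in 1 fraction and lower in the other. Of the 11085 genes compared in both fractions, 4.53% were higher in both at 12 h and 3.88% at 24 h. In the nucleus alone 5.4% and 5.99% were higher, in the cytoplasm alone 5.41% and 5.01%, and 0.108% and 0.0631% had opposite calls. Of 141 other annotated genes under 300 exonic bases, 32.6% and 34% were higher in both, close to the members' 34.6% and 38.5%. Of these 141, 6.38% and 10.6% were higher in the nucleus alone and 20.6% and 12.8% in the cytoplasm alone. The members' shares were 7.69% and 11.5%, and 19.2% and 15.4%. Whether the 2 fractions differ was examined through the nuclear-to-cytoplasmic ratio, with all 6 groups scaled together.

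Before treatment 49 of 63 members had at least 2-fold higher nuclear than cytoplasmic CPM and 2 had lower, where all genes gave 47.5% and 32.7%. The corresponding counts were 54 and 1 at 12 h (all genes 46.4% and 29.3%) and 55 and 1 at 24 h (45.7% and 28.9%). In 11 of the 63 ratios at 0 h, 2 at 12 h and 3 at 24 h, 1 side had 0 reads and was set to the floor of 3 reads. The members' median log2 ratio was 2.52, 2.54 and 3.09 at the 3 times, and it was 2.95, 2.46 and 2.44 over other annotated genes under 300 exonic bases. The members' median was 3.93, 3.64 and 4.04 by total counts and 3.43, 3.58 and 3.58 by TPM, so the size of its difference between times rests on the scaling. All 7 Cajal body RNAs, which reside in a nuclear body, were called nuclear at each time, 2 of them with a floor value at 0 h. On the cytoplasmic side at 0 h were Rnu5g (−1.15, interval −1.47 to −0.83) and Snord118, whose interval ran from −1.19 to −0.82. Rnu5g remained there at 12 h (−1.83) and 24 h (−1.81), and Snord118 moved to 1.11 and 1.55 on the nuclear side. Total-count scaling raised the median log2 ratio of all genes by 1.41, 1.10 and 0.96, with 78.9%, 80.3% and 78.9% of the called genes nuclear instead of 59.2%, 61.3% and 61.3%. TPM gave 68.3%, 78.7% and 69.2%. By total counts no member was called cytoplasmic, and the ratio of Rnu5g was 0.26 at 0 h, −0.73 at 12 h and −0.85 at 24 h, and that of Snord118 at 0 h was 0.41, so the sign of both ratios at 0 h rests on the scaling. The same holds for Snord13, not called at 0 h, with −0.57 by the scaling used, 0.85 by total counts and 0.26 by TPM. By TPM they were −0.33 for Rnu5g and −0.18 for Snord118 at 0 h.

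The change of the ratio from 0 h could be followed in 50 members at each time. The 2 sets were not identical, with Snord58b followed only at 12 h and Snord88c only at 24 h. At 12 h it was higher by at least 2-fold, with an interval that excluded 0, in 7 and lower in 8, where all genes gave 10.8% and 6.1%. At 24 h it was higher in 10 and lower in 3, where all genes gave 8.8% and 7.68%. These counts rest on scaling all 6 groups together. Total-count scaling raised the median log2 ratio of all genes by less at 12 h (1.10) and 24 h (0.96) than at 0 h (1.41). Every change is therefore lower by total counts, so fewer members would be called higher and more called lower. The median change over the members was −0.30 and 0.06, against 0.30 and 0.19 over all genes. Over other annotated genes under 300 exonic bases it was −0.25 and −0.35. The 3 C/D box RNAs outside other genes were among the higher ones at both times. Of these, Snord104 at 12 h was near the threshold and would be under 2-fold by total counts. For Snord13 the ratio rose by 3.11 (interval 2.56 to 3.66) and 4.38 (3.82 to 4.95) on the log2 scale, for Snord118 by 2.11 (1.88 to 2.35) and 2.56 (2.33 to 2.78) and for Snord104 by 1.02 (0.46 to 1.57) and 2.24 (1.69 to 2.79). Snord65 (3.23 and 2.39) and, at 24 h, Snord66 (4.62) were also higher, on at most 10 cytoplasmic reads a group. Snord15a was at 1.95 and 2.43, Snora23 at 1.65 and 2.17, and Rnu12 was at 0.85 at 12 h, under 2-fold, and at 1.80 (1.44 to 2.16) at 24 h. Scarna6 (−1.34), Snord43 (−1.11) and Snora57 (−1.34) had a lower ratio at 12 h. Snord98 (−4.78) at 24 h rests on 1 cytoplasmic read at 0 h. Some cytoplasmic marker mRNAs also had a higher ratio with treatment, with Eef1a1 at −4.47, −2.64 and −2.95 and Tubb5 at −3.93, −2.46 and −2.64 at 0, 12 and 24 h, while the mitochondrial mt-Co1 was at −5.01, −5.06 and −5.31. The part of a different separation of the fractions in the members' ratio changes was not tested.

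**Figure D5:**
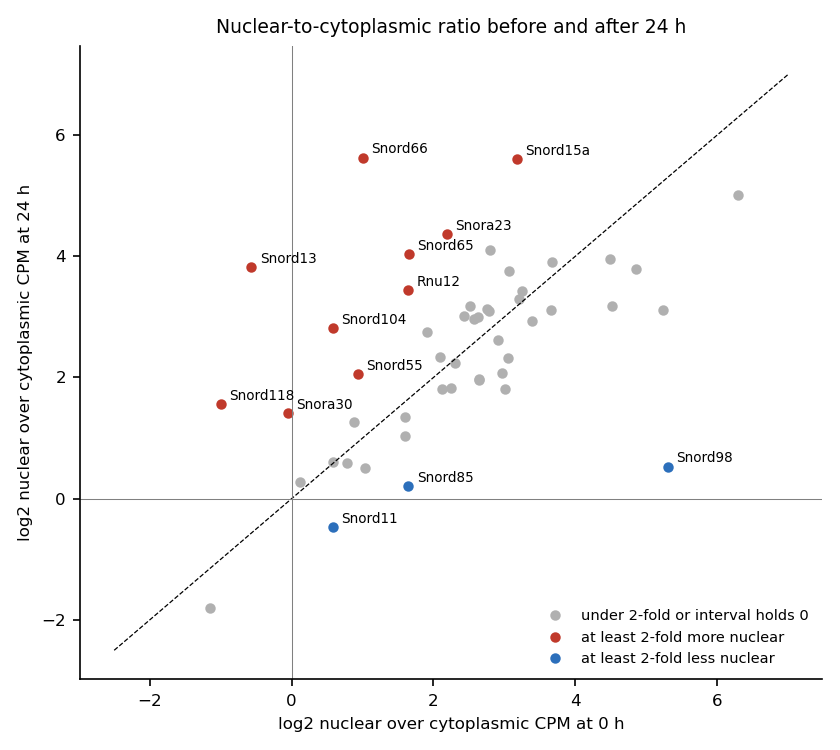
Log2 ratio of nuclear to cytoplasmic CPM at 0 h (horizontal axis) and at 24 h (vertical axis) for the 50 members followed at 24 h, with a dashed line of equality. Red points, named, are the 10 members with a ratio at least 2-fold higher at 24 h, blue points the 3 with a lower ratio. Snord13 goes from −0.57 to 3.82 and Snord118 from the edge of the cytoplasmic side to 1.55, while by total counts both lie on the nuclear side at 0 h as well.

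The proteins that bind, assemble, transcribe or degrade these RNAs were read from lists of their genes in the same nuclear groups. Over all genes compared, 7.92% were higher at 12 h and 7.88% at 24 h, and 6.64% and 5.75% were lower, so 1 call in a list of 8 to 17 genes is near the background. Of 8 core proteins of small nucleolar ribonucleoproteins, 1 was higher at 12 and 24 h, Nop10 of the H/ACA complex (log2 1.05 and 1.10), and 1 was lower at 24 h, Gar1 of the same complex (−1.47). Of 11 assembly factors 1 was higher at both times, the helicase gene Ruvbl1 (1.09 and 1.09). Of 14 genes listed for Cajal bodies and the SMN complex 1 was higher, Usp39 (1.20 and 1.47), whose protein belongs to the major spliceosome instead. Of 14 Sm and LSm proteins 1 was higher at 12 h, Snrpd2 (1.15), and 0 at 24 h. None of the 14 genes listed for the major spliceosomal particles, a list without Usp39, passed 2-fold. Of 9 minor spliceosome proteins, which work with Rnu12, 0 were higher and 1 was lower at 24 h, Rnpc3 (−1.01, 29.3 to 14.5 CPM). None of 24 genes of small nuclear RNA transcription and the Integrator complex and none of 14 genes of cap binding, export and 3′ trimming passed 2-fold at either time. Of 17 exosome genes 0 were higher and 1 was lower at 24 h, Exosc3 (−1.10). In the cytoplasm at most 2 genes of any of these 9 lists were called at 12 or 24 h against 0 h. The median nuclear log2 ratios of the 9 lists lay between −0.17 and 0.55. By total counts Nop10 (0.84 and 0.80), Ruvbl1 (0.87 and 0.79), Usp39 at 12 h (0.99) and Snrpd2 at 12 h (0.93) were under 2-fold. By TPM none of these 4 reached 2-fold at either time, and Exosc3 at 24 h (−0.90) did not. Gar1 and Exosc3 were named after their values were seen.

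Other short structured RNAs, outside the family, moved with it. Of 7 with sufficient counts, 6 were higher in the nucleus at 12 h and all 7 at 24 h, with medians of 3.87 and 5.02, and all 7 were higher in the cytoplasm at both times. Rny3, a Y RNA, had 2.30, 42.7 and 74.6 CPM in the nucleus and 49.5, 1165 and 1142 in the cytoplasm. Rpph1, the RNA of ribonuclease P, had 2.48, 30.4 and 61.3 CPM in the nucleus and 8.51, 462 and 705 in the cytoplasm. Rn7sk, which holds back the elongation factor P-TEFb, had 1530.2, 4130 and 5797 CPM in the nucleus. Whether the recovery of short RNAs in the libraries differed between the groups was not tested.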

How the data were processed

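RNA of nuclear and cytoplasmic fractions was sequenced from tagmentation libraries, per the labels' protocols. The submitters' processing notes name HISAT2 2.2.0, featureCounts, DESeq2 and the build GRCm38. How strand, overlapping genes and multiply mapped reads were treated, and which annotation was used, is not given in the sources used here. In the deposited count table every value times 3 was whole within 0.001 (100% of values), so each of the 6 columns was read as the authors' mean count over 3 libraries, an expected count that need not be whole. The deposited TPM values of each group, per the file headers, were proportional to these means over 1 length per gene and served as an alternative.

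Scaling factors came from the TMM method (30% of log ratios and 5% of mean levels trimmed at each end), within a fraction for times and over all 6 groups for fractions. Log2 ratios carry exact Clopper-Pearson 95% intervals from the summed reads (normal approximation for differences of log2 ratios), which cover counting error only. At least 2-fold with an interval excluding 0 was called. A side at 0 was set to a floor of 3 reads over the group. The planned test for replicated counts could not be used on means. Scipy 1.17.1, pandas 2.3.3, numpy 2.4.6 and matplotlib 3.10.9 under Python 3.11.15 were used, and the computation was tested on simulated data. Alternatives were total-count and median-of-ratios scaling, log2(TPM + 1), and minimum counts of 30 and 3. Calls on log2(TPM + 1) used the 2-fold threshold alone, without an interval.

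Members and lists were chosen with earlier results of these data known. Named members were 4 given ones, up to 6 per class by mean CPM, and up to 6 called per direction and time comparison with at least 1 CPM. Named other genes were their enclosing genes and up to 3 per list with at least 5 CPM. Other members, such as those sharing an enclosing gene, and Gar1 and Exosc3 were named after their values were seen. Positions, sequences and lengths are from GENCODE M21, which held 55227 of the 55487 rows. Sequences of some members named are not reported here.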

Additional observations from a re-analysis of the deposited data

How the results depend on the processing

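No paired analysis was possible because the deposited columns are group means and carry no replicate numbers, and leaving out a library was not possible for the same reason. Of the log2 ratios of named members between times, 146, 138 and 124 stayed on the same side of the threshold under median-of-ratios scaling, total-count scaling and log2(TPM + 1), 1, 8 and 20 lost their call, 0, 1 and 3 gained one, and no called ratio changed sign. On log2(TPM + 1), where calls used 2-fold alone without an interval, 1 member was called lower in the nucleus at 12 h and 6 at 24 h against 0 h. From 12 to 24 h this scale gave 0 higher and 2 lower members. In the cytoplasm this scale gave 8 higher and 1 lower at 12 h, 9 higher at 24 h, and 1 higher and 0 lower between 12 and 24 h, and it gave 0 cytoplasmic members at 0 and 12 h. Total-count scaling gave 1 lower at nuclear 24 h against 12 h, 0 lower at cytoplasmic 24 h against 12 h, and 0 members on the cytoplasmic side at 0, 12 and 24 h. With at least 30 counts, 1 member was lower in the nucleus at 24 h, 7 and 5 of 13 were higher in the cytoplasm at 12 and 24 h against 0 h, and 0 were lower between 12 and 24 h. With at least 3 counts, 25 of 52 were higher in the cytoplasm at 12 h and 25 at 24 h, 1 was higher and 4 lower between 12 and 24 h, 1 was lower in the nucleus between 12 and 24 h, and 2 and 3 members were cytoplasmic at 12 and 24 h. The stricter limit compares fewer members by construction, and otherwise the cause was not tested. The remaining counts of members called between times or between fractions, among them those higher in the nucleus, stayed within 1.5 times of those given. Counts of members with a changed nuclear-to-cytoplasmic ratio are given on 1 scaling and are not among these. Restricting the calls in all comparisons, 258 in number, to members outside other genes on the same strand left 51. With no values per library, no result was checked against the spread between libraries.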
